A study of Homo sapiens with 4 samples.

Results

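The enzymes that build, convert and recycle purine and pyrimidine nucleotides were examined as a set of 34 genes, chosen by name from the steps of these pathways. All 34 were measured, among 24241 named genes on the arrays. The set held 5 genes of de novo pyrimidine synthesis, 12 of phosphoribosyl pyrophosphate (PRPP) and de novo purine synthesis, 7 of deoxynucleotide synthesis and control, and 10 salvage enzymes and nucleotide kinases. RNA came from MOLM-14, a cell line derived from human acute myeloid leukaemia, on 4 Affymetrix whole-transcript arrays. One group of 2 cultures was given GSK621, which activates the kinase AMPK, at 30 µM for 6 h. The other group of 2 cultures was given rapamycin, which inhibits the kinase complex mTORC1, at 10 nM for 12 h, and then GSK621 at the same dose and time. Every culture thus carried GSK621. Cultures with no drug or with rapamycin alone were not analysed here, so a difference below is that of rapamycin followed by GSK621 against GSK621 without rapamycin. A single cell line was used, and AMPK and mTORC1 activity were not read from these arrays.

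Cells make nucleotides de novo from amino acids, bicarbonate, folate carbon units and PRPP, or recover bases and nucleosides by salvage. Proliferating leukaemia cells draw heavily on de novo synthesis and on ribonucleotide reductase, which turns ribonucleotides into the deoxynucleotides of DNA. In other cell systems mTORC1 is known to stimulate pyrimidine synthesis through phosphorylation of CAD and purine synthesis through the transcription factor ATF4 and the mitochondrial folate cycle. MYC is known to drive transcription of many of these enzymes through the E-box.

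Higher on both rapamycin arrays than on both GSK621 arrays were 16 of the 34 genes (47.1%, against 20.5% of all genes). Among genes above the median level, where all 34 lay, that share was 26%. Of the 16 genes, 10 belonged to de novo synthesis. All 5 pyrimidine genes were among them, led by the CTP synthase CTPS1 at 1.35-fold, with CAD apart by a narrow margin only. In the purine pathway, PFAS, ATIC, ADSL and IMPDH2 were 1.17-fold to 1.20-fold higher, whereas PPAT, the enzyme of the committed step, was 1.16-fold lower. RRM2B, the ribonucleotide reductase subunit known as a p53 target, was 1.21-fold lower, and the other deoxynucleotide and salvage genes differed by less. None of the 34 genes passed the test over all genes (limma with Benjamini-Hochberg adjustment, smallest adjusted p = 0.482), so these are directions and sizes, not established changes.

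Promoters are shown for the 4 genes with higher values and an unadjusted p under 0.05, and for PPAT, which differed in the opposite direction. Each is the RefSeq sequence of GRCh38.p14 from 250 bases before to 50 bases after the annotated start, written 5′ to 3′ in the direction of transcription, with capitals marking the E-box CACGTG. The windows are chr1:40979446-40979745, plus strand, for CTPS1, chr16:72008494-72008793, plus strand, for DHODH, chr17:8249039-8249338, plus strand, for PFAS, chr2:215311809-215312108, plus strand, for ATIC and chr4:56435566-56435865, minus strand, for PPAT.
CTPS1: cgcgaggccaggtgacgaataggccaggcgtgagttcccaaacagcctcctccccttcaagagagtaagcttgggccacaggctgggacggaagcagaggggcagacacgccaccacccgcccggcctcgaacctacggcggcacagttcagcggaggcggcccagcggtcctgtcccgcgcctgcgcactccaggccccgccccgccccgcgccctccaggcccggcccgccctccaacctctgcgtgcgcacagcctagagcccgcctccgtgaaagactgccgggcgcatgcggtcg
DHODH: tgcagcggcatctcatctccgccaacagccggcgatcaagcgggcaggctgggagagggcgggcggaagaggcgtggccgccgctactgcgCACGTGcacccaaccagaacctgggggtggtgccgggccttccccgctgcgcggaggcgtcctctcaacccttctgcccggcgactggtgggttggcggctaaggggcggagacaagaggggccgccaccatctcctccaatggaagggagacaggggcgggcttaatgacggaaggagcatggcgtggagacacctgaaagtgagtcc
PFAS: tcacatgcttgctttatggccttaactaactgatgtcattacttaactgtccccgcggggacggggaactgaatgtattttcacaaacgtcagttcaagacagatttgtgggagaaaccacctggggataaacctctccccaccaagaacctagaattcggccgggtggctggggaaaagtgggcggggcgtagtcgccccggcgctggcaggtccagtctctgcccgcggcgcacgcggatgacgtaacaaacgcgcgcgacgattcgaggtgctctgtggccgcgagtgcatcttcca
ATIC: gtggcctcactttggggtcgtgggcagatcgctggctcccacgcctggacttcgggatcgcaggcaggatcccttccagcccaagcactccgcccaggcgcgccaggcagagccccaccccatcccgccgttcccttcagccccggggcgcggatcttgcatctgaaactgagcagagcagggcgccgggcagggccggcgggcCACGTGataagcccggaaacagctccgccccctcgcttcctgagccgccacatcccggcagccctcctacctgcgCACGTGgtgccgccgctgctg
PPAT: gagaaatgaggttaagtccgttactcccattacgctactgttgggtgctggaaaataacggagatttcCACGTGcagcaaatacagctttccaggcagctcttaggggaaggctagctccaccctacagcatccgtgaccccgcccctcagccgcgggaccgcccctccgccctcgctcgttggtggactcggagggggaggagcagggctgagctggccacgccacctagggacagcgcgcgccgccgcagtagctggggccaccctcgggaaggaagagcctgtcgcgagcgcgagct
An E-box began 159 bases before the start of DHODH and 182 bases before that of PPAT. ATIC held one E-box 46 bases before its start and another 29 bases after it. The windows of CTPS1 and PFAS held no such letters.

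Of the 34 genes, 31 had a promoter of 300 bases in the RefSeq set, all but ADSL, IMPDH2 and RRM2B. For PAICS the set gives an annotated start inside PPAT (chr4:56410257-56410556, plus strand). That window was counted among the 31 and held none of the motifs below. Matches were counted on both strands. The E-box CACGTG stood in 6 of the 31 (19.4%), against 7.44% of all 27305 promoters and 8.88% of the 15843 promoters of protein-coding genes. The 6 were DHODH, PPAT, ATIC, MTHFD1, DCK and NME1, so the letters stood beside genes with higher, lower and near-equal values. An E2F core (TTCCCGC or TTGGCGC, of which the latter can overlap a CCAAT box on the opposite strand) stood in 5 of 31 (16.1%), against 12.3% of protein-coding promoters. These were PRPS1, PRPS2, RRM1, TYMS and DCK. A CCAAT box (CCAAT) stood in 12 of 31 (38.7%) against 36.4%, and an SP1 box (GGGCGG) in 19 of 31 (61.3%) against 58.5%. These matches describe the letters of the windows and do not show binding of a factor.

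Levels are log2 values as the authors deposited them, and differences are log2 differences of rapamycin then GSK621 minus GSK621. Array medians lay between 5.37 and 5.43. Replicates of a group correlated at 0.994 and 0.995 over all genes, which are not independent replicates, and arrays of different groups at 0.993 to 0.994. A gene typically differed by 0.120 to 0.126 between replicates and by 0.137 to 0.143 between arrays of different groups (medians of absolute log2 differences). The number of arrays limits the precision, and the replicates are labelled as biological. Of 10 myeloid leukaemia markers 8 were measured, from percentile 60.9 of mean level for MPO to 99.7 for LYZ, with FLT3 at 98. Of 10 markers of lymphoid, red, megakaryocyte, stromal, epithelial and endothelial cells 8 were measured, between percentiles 3.04 and 61.9. The highest of these were COL1A1 (61.9) and PF4 (56.7), and without detection calls their presence or absence could not be told. The log2 of the summed signal of these other-cell markers was 8.11 and 8.14 after GSK621 and 8.00 and 8.07 after rapamycin and GSK621. That of the myeloid markers ran from 12.62 to 12.67 and from 12.63 to 12.73. Of the myeloid markers 3 had higher values without overlap, FLT3, SPI1 and CSF1R, and 3 lower, MPO, MEIS1 and PTPRC. Of the other markers HBB and MS4A1 were higher and PF4 was lower. Of all genes 20.5% were higher and 18.9% lower without overlap. The part of either list in the differences below was not tested. Because the RNA is from whole cultures, more cells with a transcript and more transcript per cell cannot be told apart.

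With limma over all 24241 genes, 0 of the 34 had an adjusted p under 0.05, and the background was also 0% of genes. Without adjustment, 4 genes had higher values at a p under 0.05, 11.8% of the 34 against 4.31% of all genes. They were CTPS1, DHODH, PFAS and ATIC. There was 1 with lower values, RRM2B, or 2.94% against 4.2%. Beside the 16 genes higher without overlap, 3 of the 34 were lower on both rapamycin arrays than on both GSK621 arrays, or 8.82%, against 18.9% of all genes. These 3 were PPAT, RRM2B and UCK2. The median difference over the 34 was 0.09, against 0.00450 over all genes. All 34 genes lay above the median level of all genes, and among the 12120 genes above that level the background was higher. There 8.25% had higher and 6.34% lower values at an unadjusted p under 0.05. Without overlap 26% were higher and 21% lower, and the median difference was 0.014. In that fit 6 of the 34 had higher values at an unadjusted p under 0.05.

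The unadjusted counts fell when any single array was left out. Each such fit also has fewer residual degrees of freedom, so a lower count cannot be laid to the array left out. The count of genes with higher values at an unadjusted p under 0.05 came to 1 without GSK621 replicate 1, without replicate 1 of rapamycin then GSK621, and without its replicate 2, and to 3 without GSK621 replicate 2. The shares of all genes in the same fits were 3.86%, 3.1%, 2.82% and 3.92%, in that order. A count of 1 is 2.94% of the 34, near or below these shares. RRM2B had an unadjusted p above 0.05 when any single array was left out. The median difference over the 34 was 0.071 and 0.101 without GSK621 replicates 1 and 2. It was 0.065 and 0.136 without replicates 1 and 2 of rapamycin then GSK621. In these fits the difference of CTPS1 ran from 0.362 to 0.498 and that of DHODH from 0.221 to 0.316. That of PFAS ran from 0.233 to 0.281, that of ATIC from 0.204 to 0.309 and that of RRM2B from −0.315 to −0.224.

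**Figure D1:**
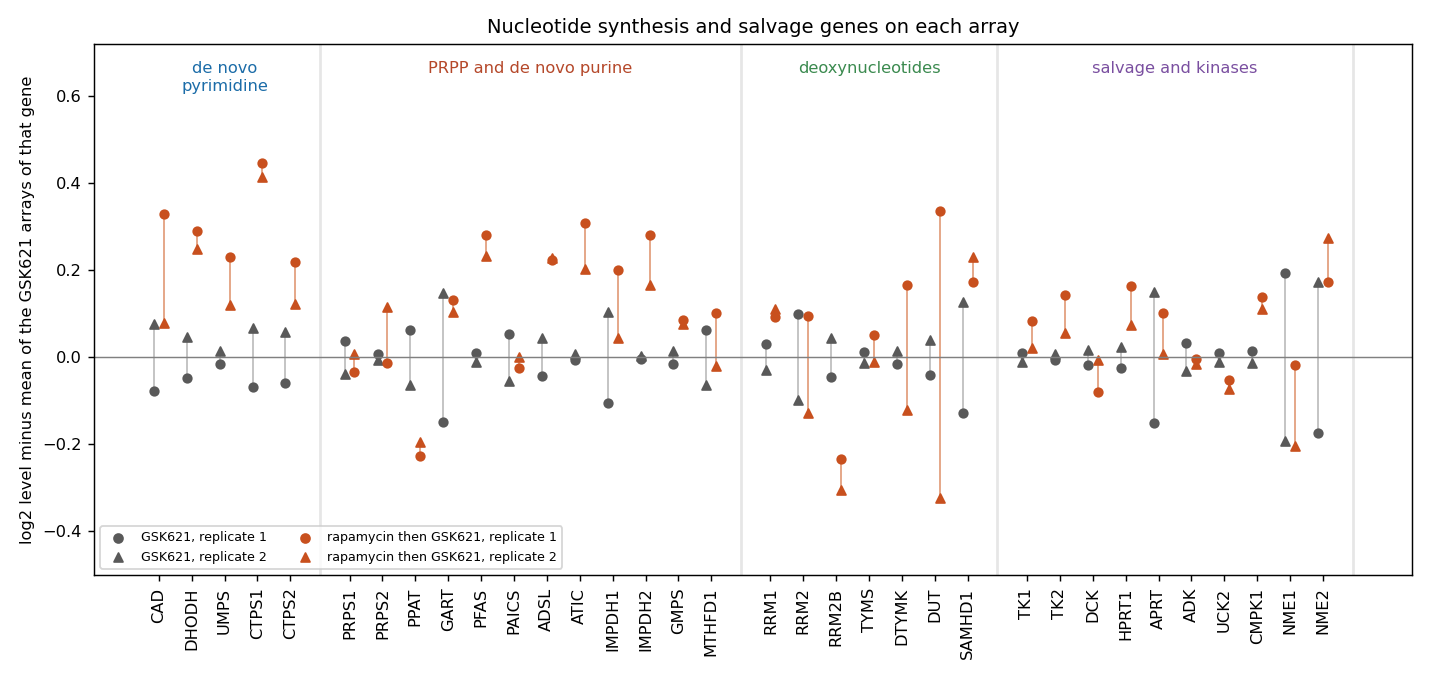
Log2 level of each of the 34 genes on each array, minus the mean of the 2 GSK621 arrays of that gene, by role. Grey points are GSK621 and orange points rapamycin then GSK621, circles are replicate 1 and triangles replicate 2, and lines join the replicates of a group. All 5 de novo pyrimidine genes have both orange points above both grey points, CAD by a narrow margin. DUT has the widest gap between replicates. PPAT, RRM2B and, by a small amount, UCK2 have both orange points below both grey points.

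De novo pyrimidine synthesis was the role in which the groups did not overlap for any gene in the values as deposited. All 5 of 5 were higher after rapamycin, against 20.5% of all genes and 26% of genes above the median level. The median difference was 0.20. For CAD this rests on a narrow margin given below. CTPS1 makes CTP from UTP and is the CTP synthase that lymphocytes are known to need for proliferation. Its level was 8.15 and 8.28 on the GSK621 arrays and 8.66 and 8.63 on the rapamycin arrays. The rapamycin arrays were thus both higher, by more than the gap between either pair of replicates. The difference was 0.43 ± 0.10 (SE, n = 2 per group), with a 95% interval of 0.18 to 0.68 and a limma adjusted p of 0.482. It stood at percentile 98.6 of the differences of all genes.

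DHODH oxidises dihydroorotate on the inner mitochondrial membrane and is the enzyme blocked by brequinar and leflunomide. It had 7.40 and 7.49 after GSK621 and 7.73 and 7.69 after rapamycin and GSK621. Both rapamycin arrays were again higher, with a difference of 0.27 ± 0.10 (95% interval 0.03 to 0.51, limma adjusted p = 0.574). CAD, the enzyme that carries the opening steps of the pathway and is known as a substrate of the mTORC1 target kinase S6K1, had 7.62 and 7.77 against 8.03 and 7.78. Here replicate 2 of each group was at nearly the same level, 7.774 after GSK621 and 7.775 after rapamycin and GSK621. The absence of overlap for CAD rests on that margin. It is smaller than the gap between the medians of those arrays, 5.367 and 5.379, and centring on the medians reverses their order. The difference of 0.20 ± 0.13 came to 0.079 without replicate 1 of rapamycin then GSK621. UMPS, which completes UMP, had a difference of 0.18 ± 0.10. CTPS2, the second CTP synthase, had 7.07 and 7.18 against 7.34 and 7.25, a difference of 0.17 ± 0.10 (95% interval −0.09 to 0.43), which ran from 0.113 to 0.229 when an array was left out.

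In PRPP and de novo purine synthesis 9 of 12 genes had higher and 3 lower values, with a median difference of 0.10. The groups did not overlap for 5 higher genes and 1 lower gene, or 41.7% and 8.33%, against 20.5% and 18.9% of all genes. Among genes above the median level these shares were 26% and 21%. PFAS, which acts at the fourth step of inosine monophosphate (IMP) synthesis, had 7.92 and 7.90 after GSK621 and 8.20 and 8.15 after rapamycin and GSK621. The replicates lay close together in both groups, and the difference was 0.26 ± 0.09 (95% interval 0.02 to 0.49, limma adjusted p = 0.575). ATIC, which completes IMP, had 10.08 and 10.10 against 10.40 and 10.29. Its difference was 0.26 ± 0.10 (95% interval 0.01 to 0.50, limma adjusted p = 0.584). ADSL, the lyase used in IMP synthesis and in the adenylate branch, had a difference of 0.23 ± 0.09, with both rapamycin arrays above both others.

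The first enzyme of the committed pathway differed in the other direction. PPAT transfers an amide nitrogen onto PRPP. Its level was 9.06 and 8.93 on the GSK621 arrays and 8.77 and 8.80 on the rapamycin arrays, so both rapamycin arrays were lower. The difference was −0.21 ± 0.10 (95% interval −0.46 to 0.04, limma adjusted p = 0.638), at percentile 10.4 of all genes. PAICS, the enzyme of the sixth and the seventh step, has an annotated gene that overlaps that of PPAT on the opposite strand. PAICS had 5.65 and 5.54 against 5.57 and 5.60, with overlapping groups and a difference of −0.01 ± 0.10. Its mean level stood at percentile 52.6 of all genes, the lowest of the set, against 90.5 for PPAT. Without detection calls, these values cannot tell an unchanged PAICS transcript from a signal near background. GART, the trifunctional enzyme of the second, the third and the fifth step, had overlapping groups and a difference of 0.12 ± 0.13, which turned to −0.029 without GSK621 replicate 1.

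The guanylate branch leaves IMP through the IMP dehydrogenases, of which IMPDH2 is the form of proliferating cells. IMPDH2 had 10.95 and 10.96 after GSK621 and 11.24 and 11.12 after rapamycin and GSK621. Both rapamycin arrays were higher, with a difference of 0.22 ± 0.10 (95% interval −0.02 to 0.47). IMPDH1 had 7.74 and 7.95 against 8.05 and 7.89, so the groups overlapped, with a difference of 0.12 ± 0.12. It came to 0.019 without GSK621 replicate 1 and to 0.227 without GSK621 replicate 2. GMPS, which makes GMP, had a difference of 0.08 ± 0.09, small but without overlap.

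PRPP itself is made by PRPS1 and PRPS2. PRPS1 had 8.23 and 8.15 against 8.16 and 8.20, a difference of −0.01 ± 0.09. PRPS2 had 9.13 and 9.11 against 9.11 and 9.24, a difference of 0.05 ± 0.10. Both overlapped, with 95% intervals of −0.25 to 0.22 and −0.20 to 0.30. MTHFD1, the cytosolic enzyme that supplies formyl groups for the purine ring, also overlapped, with a difference of 0.04 ± 0.11.

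**Figure D2:**
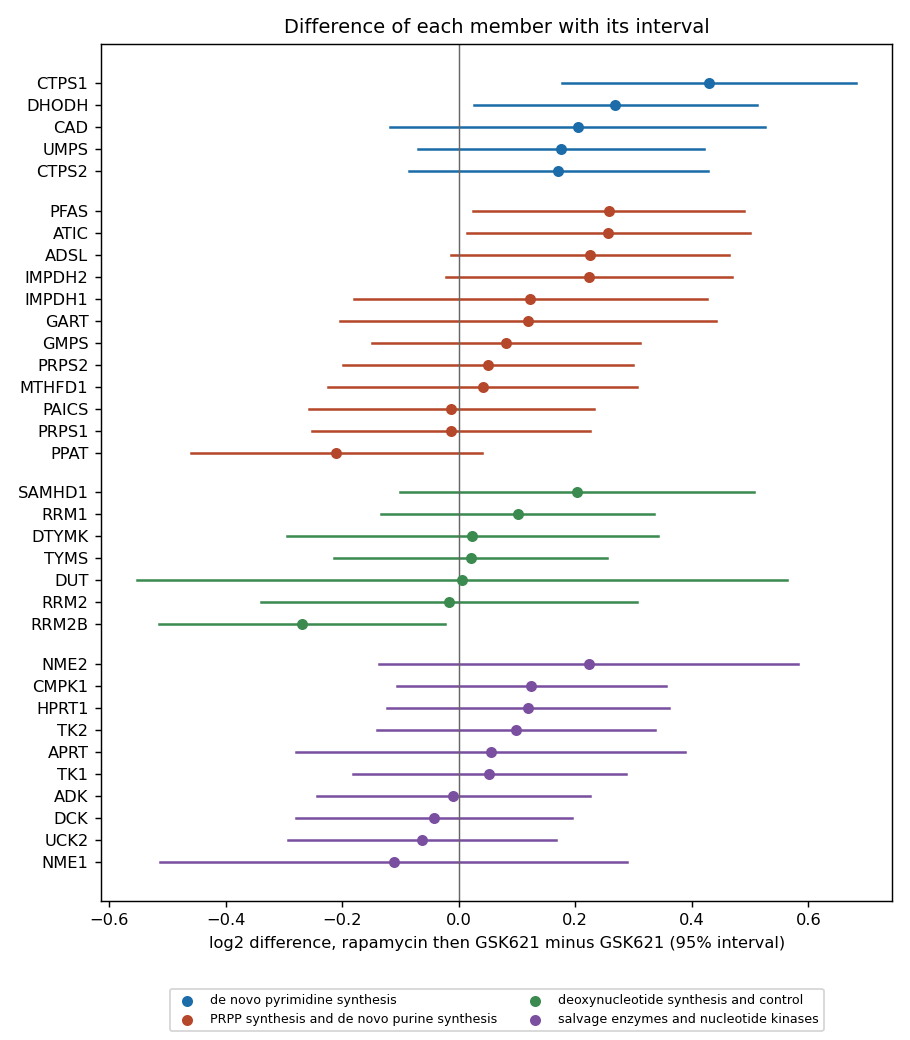
Log2 difference of each of the 34 genes, rapamycin then GSK621 minus GSK621, as a point with its 95% interval from limma, coloured by role. The interval excludes 0 for 5 genes, CTPS1, DHODH, PFAS, ATIC and RRM2B, before adjustment for the number of genes tested.

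Deoxynucleotide synthesis and control had 5 genes with higher and 2 with lower values among 7, and a median difference of 0.021. RRM2B is the small subunit of ribonucleotide reductase that serves DNA repair and mitochondrial DNA outside S phase. It had 8.30 and 8.39 on the GSK621 arrays and 8.11 and 8.04 on the rapamycin arrays. Both rapamycin arrays were lower, with a difference of −0.27 ± 0.10 (95% interval −0.51 to −0.02, limma adjusted p = 0.576). RRM2, the small subunit of S phase, had 9.43 and 9.23 against 9.42 and 9.20. In both groups replicate 1 was the higher, by 0.20 and 0.22, and the difference between treatments was −0.02 ± 0.13. RRM1, the large catalytic subunit, had a difference of 0.10 ± 0.09 without overlap.

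SAMHD1 breaks down deoxynucleoside triphosphates and is known to limit the response of acute myeloid leukaemia cells to cytarabine. Its level was 10.96 and 11.22 after GSK621 and 11.27 and 11.32 after rapamycin and GSK621. The rapamycin arrays were higher, but GSK621 replicate 2 lay close to them, and the difference was 0.20 ± 0.12 (95% interval −0.10 to 0.51). It came to 0.076 without GSK621 replicate 1. In the thymidylate branch, the synthase TYMS had a difference of 0.02 ± 0.09 and the thymidylate kinase DTYMK one of 0.02 ± 0.13. TYMS overlaps the annotated gene ENOSF1, and whether this touches its signal was not tested. The dUTP hydrolase DUT had 7.78 and 7.86 against 8.16 and 7.50. The rapamycin replicates of DUT lay on either side of both GSK621 arrays, so its difference of 0.01 ± 0.22 had the widest interval of the 34 (−0.55 to 0.56).

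Among the 10 salvage enzymes and nucleotide kinases 6 had higher and 4 lower values, with a median difference of 0.054 and 0 genes at an unadjusted p under 0.05. CMPK1, the kinase of UMP and CMP, had 9.34 and 9.31 after GSK621 and 9.46 and 9.44 after rapamycin and GSK621. The replicates were tight and the groups apart, with a difference of 0.12 ± 0.09 (95% interval −0.11 to 0.36). NME2 had 7.75 and 8.10 against 8.10 and 8.20, and NME1 had 9.62 and 9.24 against 9.41 and 9.23. These paralogous nucleoside diphosphate kinases overlapped between groups, with differences of 0.22 ± 0.14 and −0.11 ± 0.16. That of NME2 came to 0.049 without GSK621 replicate 1 and to 0.397 without GSK621 replicate 2. NME1 and NME2 are close in sequence and share a read-through transcript, so the separation of their signals is uncertain.

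The thymidine kinases differed little. TK1, the cytosolic form of S phase, had 6.28 and 6.26 against 6.36 and 6.29. TK2, the mitochondrial form, had 7.04 and 7.06 against 7.19 and 7.11. Both were higher without overlap, by 0.05 ± 0.09 and 0.10 ± 0.09. HPRT1, which returns hypoxanthine and guanine to the nucleotide pool, had a difference of 0.12 ± 0.10 without overlap. Its adenine counterpart APRT had 0.06 ± 0.13 with overlap. The nucleoside kinases DCK (−0.04 ± 0.09), ADK (−0.01 ± 0.09) and UCK2 (−0.06 ± 0.09) were lower by small amounts, of which that of UCK2 was without overlap. DCK activates cytarabine, and its 95% interval ran from −0.28 to 0.19.

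**Figure D3:**
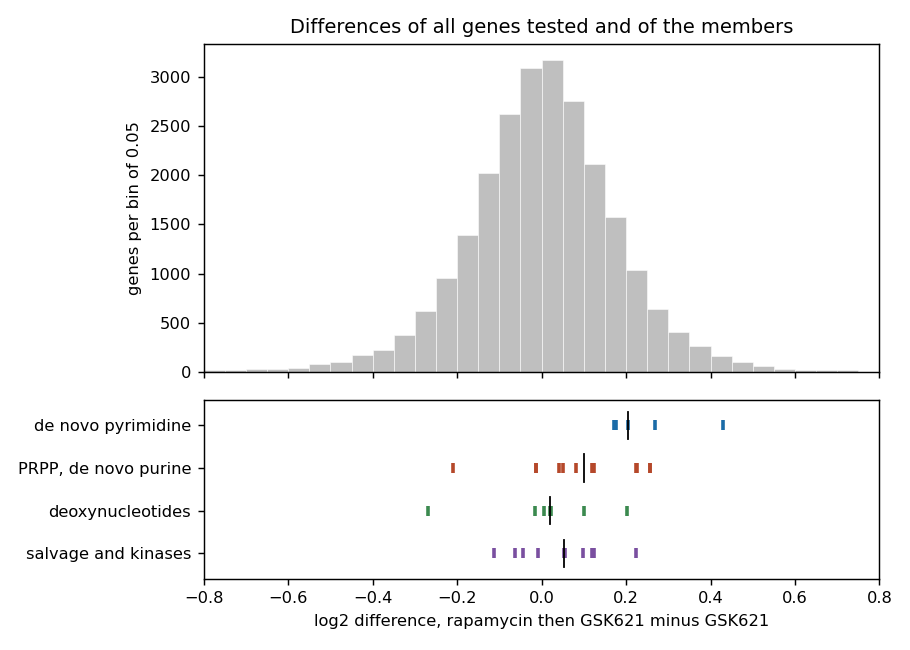
Upper panel, number of genes per bin of 0.05 of the log2 difference for the genes tested, with the outermost genes not drawn. Lower panel, each of the 34 genes by role, with the median of a role as a black line. The medians are 0.20 for de novo pyrimidine genes, 0.10 for PRPP and de novo purine genes, 0.021 for deoxynucleotide genes and 0.054 for salvage genes and kinases, against 0.00450 over all genes.

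Gaps between replicates were set against the differences between treatments. For 18 of the 34 genes the larger gap between replicates of a group exceeded the difference between treatments, and for 16 it did not. The median of that larger gap was 0.109. In both groups 4 genes were higher and 9 were lower in replicate 2. Such counts were not made over all genes, so none of them can be read as particular to the 34.

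Isozymes were also compared as a log2 ratio within each array, which removes what shifts both genes alike. The height of such a ratio depends on the probes, and its change between groups was read alone. The ratio of CTPS1 to CTPS2 was 1.08 and 1.10 on the GSK621 arrays and 1.32 and 1.38 on the rapamycin arrays. It was thus higher on both rapamycin arrays, by 0.26 ± 0.034 (SE, n = 2). The ratio of RRM2 to RRM2B was 1.13 and 0.84 against 1.32 and 1.16, higher by 0.25 ± 0.16. That of TK1 to TK2 was lower by a small amount, with a change of −0.046 ± 0.021. The ratios of PRPS1 to PRPS2 (−0.064 ± 0.053), IMPDH1 to IMPDH2 (−0.10 ± 0.10) and NME1 to NME2 (−0.33 ± 0.39) overlapped between the groups. The ratio of PAICS to PPAT, chosen after the values were seen, was −3.40 and −3.39 against −3.19 and −3.20. Its change of 0.20 came with a difference of −0.21 for PPAT and −0.01 for PAICS. That ratio thus largely repeats the difference of PPAT, and PAICS had the lowest level of the set. For the 4 ratios without overlap the exact permutation p was 0.333 (two-sided), the smallest that 2 against 2 arrays allow, and 0.583 after Benjamini-Hochberg adjustment over 7 ratios.

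**Figure D4:**
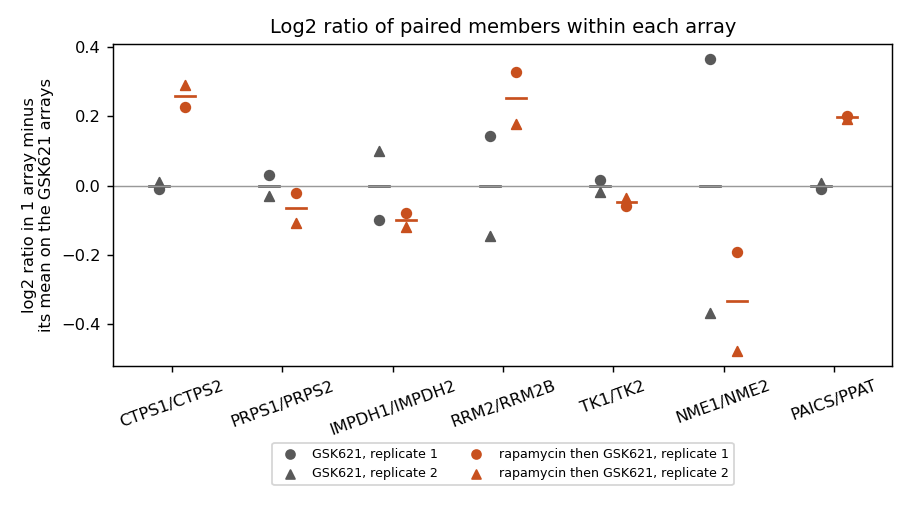
Log2 ratio of 2 genes within each array, minus the mean of that ratio on the GSK621 arrays, with bars at the group means and n = 2 per group. The ratios of CTPS1 to CTPS2, RRM2 to RRM2B and PAICS to PPAT are higher on both rapamycin arrays, and NME1 to NME2 has the widest spread between replicates.

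A wider list of 68 other genes of nucleotide metabolism was read beside the 34, of which 60 were measured under a name. Of these, 32 had higher and 28 lower values, with a median difference of 0.010 against 0.00450 over all genes. With limma over all genes 0 of the 60 passed. At an unadjusted p under 0.05 there was 1 with higher values, or 1.67% against 4.31% of all genes, and there were 4 with lower values, or 6.67% against 4.2%. The groups did not overlap for 5 higher genes, or 8.33% against 20.5%, and for 12 lower genes, or 20% against 18.9%.

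In the adenylate and guanylate branch and among partners of PRPP synthase, PRPSAP1 had 7.93 and 8.19 after GSK621 and 7.66 and 7.68 after rapamycin and GSK621. PRPSAP1 is a non-catalytic protein bound to the PRPP synthases. Both rapamycin arrays were lower, with a difference of −0.39 ± 0.12. ADSS1, the muscle-type adenylosuccinate synthase, had −0.34 ± 0.15, and the GMP reductase GMPR had −0.44 ± 0.22 with overlapping groups. Leaving out an array moved ADSS1 between −0.500 and −0.187, GMPR between −0.707 and −0.174 and PRPSAP1 between −0.522 and −0.260. Among 8 folate genes the hydrolase GGH had a difference of −0.26 ± 0.09, and MTHFD2L (−0.17 ± 0.19) and DHFR2 (0.083 ± 0.15) overlapped.

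Among 19 other kinases and salvage genes the dCMP deaminase DCTD, which feeds thymidylate synthesis, had 9.16 on both GSK621 arrays and 9.37 and 9.41 on the rapamycin arrays, a difference of 0.23 ± 0.09. NME3 had 0.19 ± 0.13 and the mitochondrial adenylate kinase AK3 had −0.11 ± 0.10. Of 15 genes of breakdown and pool cleaning, the ectonucleotidase ENTPD1 (CD39) had −0.38 ± 0.12, the nucleotidase NT5C3B 0.23 ± 0.09 and the pyrimidine-degrading DPYD 0.23 ± 0.10. All 3 were without overlap. Of 7 nucleoside transporters, SLC29A4 had −0.34 ± 0.12 without overlap, and SLC29A3 (0.18 ± 0.14) and SLC28A3 (−0.066 ± 0.097) overlapped. Leaving out an array moved SLC29A4 between −0.462 and −0.216 and SLC29A3 between 0.00823 and 0.357. The limma adjusted p of all 60 lay between 0.562 and 0.994.

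**Figure D5:**
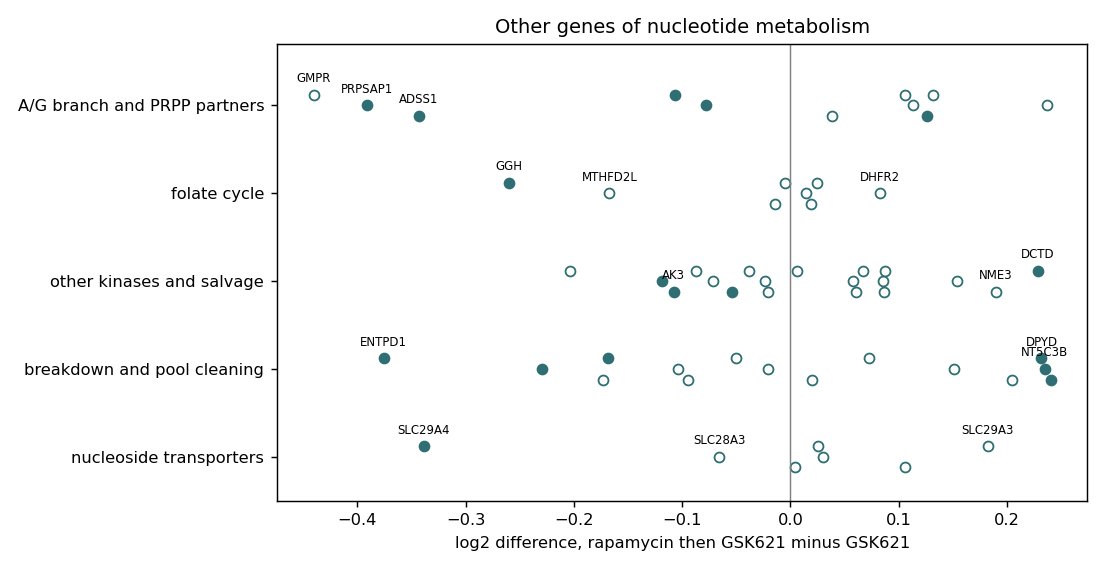
Log2 difference of each of 60 other genes of nucleotide metabolism, by list, with filled points where the groups do not overlap and open points where they do. Up to 3 genes per list with the smallest p are named, and PRPSAP1, ENTPD1, ADSS1 and SLC29A4 lie lowest among the genes without overlap.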

How the data were processed

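Biotin-labelled target from total RNA was hybridised to Affymetrix whole-transcript arrays, per the labels' protocols. The tools named, per the submitters' processing notes, were Partek and R 2.15.3, without their roles. How background was corrected, how arrays were normalized and which log base was used is not given in the sources used here. Deposited values ran from 1.84 to 13.28 with near-equal quantiles and were read as log2 expression.

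Groups and replicate numbers came from the titles. The platform annotation named 24244 of 25582 probe sets, and 1338 had no name. The brightest probe set was kept for 3 repeated symbols, and each of the 34 genes had 1 probe set. Values were used as deposited, unfiltered. Differences were tested two-sided with limma 3.58.1 (R 4.3.3; lmFit, eBayes), and p-values were adjusted by Benjamini-Hochberg over all 24241 genes, with a threshold of 0.05. The fit had 2 residual and 3.39 prior degrees of freedom. It was tested on simulated data.

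The 34 genes, their roles, the wider list and the rule for named genes were chosen with earlier results of these data known. Levels per array are given for genes at an unadjusted p under 0.05, the 2 smallest p per role, isozyme pairs and up to 3 other genes per list. CAD, PPAT, PAICS and DUT were added after their values were seen. Proteins were not compared, since no protein sequence was used here. Alternatives were a filter on dim genes, centring, quantile normalization, a block for the replicate number, other variance moderation, protein-coding genes alone, other handling of repeated probe sets, and leaving out each array. Signal over background is unknown.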

Additional observations from a re-analysis of the deposited data

How the results depend on the processing

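There were 13 other settings. In those that kept all 4 arrays, 0 of the 34 genes passed an adjusted p under 0.05 with limma. Over all genes, 74 of 24241 passed with a variance trend and robust estimation. Among the 12120 genes above the median level 3 passed, and without moderation 1 gene of 24241 did. The smallest adjusted p was 0.0906, for CTPS1 with a variance trend and robust estimation, in a range of 0.0906 to 0.809 for that gene. Of the 34, 22 kept their sign in every setting, CTPS1, DHODH, PFAS, ATIC, ADSL, IMPDH2, PPAT and RRM2B among them. Several settings leave each difference as it was. Leaving out an array cannot turn the sign of a gene without overlap, as all of these named genes were. The kept signs were thus largely fixed in advance and add no support, and no such count was made over all genes. The count with higher values at an unadjusted p under 0.05 was 7 with a variance trend and robust estimation, 7 without moderation and 1 with the replicate block, beside 5.53%, 4.22% and 4.5% of all genes. With the replicate block the share of the 34 (2.94%) was thus below that of all genes. The count ran from 1 to 3 when an array was left out, beside 2.82% to 3.92% of all genes. The count with lower values was 2 with the variance trend, 0 with centring and 0 with the replicate block. The shares of all genes with lower values in these fits were 5.05%, 3.77% and 4.44%, in that order. When an array was left out, which makes overlap rarer, 5 to 8 genes were lower without overlap, beside 32.8% to 35% of all genes, and 18 to 21 were higher, beside 34.7% to 37%. The labels give both groups replicates 1 and 2, but nothing says that a number marks a shared culture or day. Deviations of same-numbered arrays correlated at 0.0923 over genes. Arrays of different groups with the same number differed by a median of 0.137 in both pairs, and those with different numbers by 0.142 and 0.143. These values cannot tell whether more than a number was shared. With the replicate block there were 1091 genes higher at an unadjusted p under 0.05, against 1045 without it.

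Some signs turned. With quantile normalization RRM2 came to 0.0019, DUT to −0.0093 and ADK to 0.018. When an array was left out, PRPS1 ran from −0.051 to 0.024, PRPS2 from −0.013 to 0.115, GART from −0.029 to 0.266, PAICS from −0.067 to 0.042, MTHFD1 from −0.022 to 0.104, RRM2 from −0.127 to 0.094, TYMS from −0.00996 to 0.051, DTYMK from −0.120 to 0.167, DUT from −0.324 to 0.336, APRT from −0.096 to 0.206, ADK from −0.0415 to 0.023 and NME1 from −0.305 to 0.081. Outside the 34, MTHFD2L ran from −0.393 to 0.058 and DHFR2 from −0.085 to 0.251. Without a turn of sign, TK1 ran from 0.021 to 0.084, TK2 from 0.056 to 0.142, DCK from −0.079 to −0.0066, HPRT1 from 0.074 to 0.163, NME3 from 0.068 to 0.312, AK3 from −0.163 to −0.053 and SLC28A3 from −0.112 to −0.020. The cause was not tested. Where an array was left out, the lone array of its group was assumed to vary like the other group.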

Other observations

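A few genes of nucleotide metabolism with higher values in replicate 2 of both groups are given here, picked after their values were seen. TYMP, the thymidine phosphorylase, had 7.97 in replicate 1 and 8.83 in replicate 2 after GSK621, and 8.30 and 8.81 after rapamycin and GSK621. CMPK2, a mitochondrial nucleotide kinase, had 9.24 and 9.46 after GSK621 and 8.84 and 9.46 after rapamycin and GSK621. In both genes the gap between replicates of each group exceeded the size of the difference between treatments, which was 0.15 for TYMP and −0.20 for CMPK2. SAMHD1 was higher in replicate 2 by 0.25 and 0.058, against a difference of 0.20 between treatments. With 2 replicates no test of this was made.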
